A study of Rattus norvegicus with 11 samples.

Results

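Heat shock proteins and J-domain proteins are molecular chaperones, which fold, refold and sort other proteins. Their genes were taken from a table of gene expression in dorsal root ganglia of Sprague-Dawley rats, as all rows whose symbol begins with Hspa, Hspb, Hspd, Hspe, Hsph, Hsp90 or Dnaj. The rule found 70 of the 16811 rows. It gave 7 small heat shock protein genes, 3 further Hspb symbols whose products are not small heat shock proteins (Hspb11, Hspbap1 and Hspbp1), 13 genes of the HSP70 family with its HSP110 branch, 3 HSP90 genes, 2 genes of the mitochondrial chaperonin and 42 J-domain genes. Of the 70, 66 passed the filter on low values (at least 10 in at least 3 libraries), as did 12085 genes in all.

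Dorsal root ganglia, the clusters of sensory nerve cell bodies beside the spinal cord, were sequenced as total RNA depleted of ribosomal RNA in 11 libraries of 3 groups. Spinal nerve ligation, a surgical model of neuropathic pain, was combined with UNC0638 in 3 libraries from the left side (SNL plus UNC0638). UNC0638 inhibits the histone methyltransferases G9a and GLP. Ligation without UNC0638 gave 4 libraries of the left side (SNL), and a sham operation gave 4 libraries of the right side (Sham). No group received UNC0638 without ligation, and body side went along with ligation, so that the effects of both cannot be told apart. Age, sex, dose and time after surgery were not found in the labels. RNA was extracted with Trizol or RNeasy, and which library received which is not stated. Since no label says whether replicates were separate animals, p-values measure the spread between these libraries, which may be technical.

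Chaperones work as a relay. Small heat shock proteins hold unfolding proteins without using ATP. HSP70 proteins bind and release stretches of unfolded chain in cycles driven by ATP, J-domain proteins bring them their clients and start the hydrolysis of ATP, and HSP110 proteins exchange the nucleotide. HSP90 acts late, on kinases, hormone receptors and other signalling proteins. The chaperonin of Hspd1 and Hspe1 encloses proteins in the mitochondrial matrix, and Hspa5 and Hsp90b1 serve the endoplasmic reticulum (ER). Heat shock factors switch on many of the cytosolic and mitochondrial genes through heat shock elements in their promoters, whereas many ER chaperone genes carry ER stress elements. Sensory neurons have long axons with a high demand for protein upkeep, and Hspb1 (HSP27) is known for its rise in axotomised neurons and for a part in their survival.

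Promoter stretches are shown for the genes whose window held a heat shock element or an ER stress element, as a description without a test. RefSeq windows of 300 bases (build GRCr8, while the data were made on rn4) were at hand for 55 of the 70 genes and run from 250 bases before to 50 after the gene start. The heat shock element searched for has 3 units, GAA, TTC and GAA with any 2 bases between neighbouring units, or on the other strand TTC, GAA and TTC with the same spacing. It stood in 5 of the 55 windows (9.09%), against 0.798% of all 33469 windows in the table. It was not found in the windows of the stress-inducible genes Hspa1a and Dnajb1, and Hsp90aa1 and Hspa1b had no window. The 5 stretches shown are from Hspe1 (chr9:64084242-64084299, plus strand), Hspd1 (chr9:64084242-64084287, minus strand), Hsph1 (chr12:10427312-10427364, plus strand), Hspa8 (chr8:50080281-50080491, plus strand) and Dnaja1 (chr5:60638393-60638445, plus strand). Each stretch is written 5′ to 3′ on the strand of its gene, and capitals mark the matches.
Hspe1: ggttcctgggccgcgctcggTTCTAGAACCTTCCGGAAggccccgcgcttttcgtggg
Hspd1: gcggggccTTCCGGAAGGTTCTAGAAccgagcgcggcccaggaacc
Hsph1: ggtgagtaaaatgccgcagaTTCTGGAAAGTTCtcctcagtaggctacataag
Hspa8: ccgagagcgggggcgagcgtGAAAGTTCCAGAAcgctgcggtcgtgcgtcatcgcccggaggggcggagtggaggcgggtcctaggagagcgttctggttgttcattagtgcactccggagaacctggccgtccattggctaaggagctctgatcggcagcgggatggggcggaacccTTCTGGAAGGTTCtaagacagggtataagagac
Dnaja1: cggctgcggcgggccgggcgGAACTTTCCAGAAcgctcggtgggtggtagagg
Hspe1 and Hspd1 lie head to head, and their windows share the same pair of overlapping matches, read from opposite strands. The ER stress element searched for, CCAAT and CCACG with any 9 bases between them on either strand, stood in 3 of the 55 windows (5.45%), against 0.0657% of all windows. The stretches are from Hspa5 (chr3:38452953-38453011, plus strand), Hsp90b1 (chr7:23012327-23012489, minus strand) and Dnajc3 (chr15:102432514-102432572, plus strand).
Hspa5: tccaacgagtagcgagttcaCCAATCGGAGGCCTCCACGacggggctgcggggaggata
Hsp90b1: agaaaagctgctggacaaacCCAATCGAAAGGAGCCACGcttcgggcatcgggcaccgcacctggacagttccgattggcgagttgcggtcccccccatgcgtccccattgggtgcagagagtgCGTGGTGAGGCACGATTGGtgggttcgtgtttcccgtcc
Dnajc3: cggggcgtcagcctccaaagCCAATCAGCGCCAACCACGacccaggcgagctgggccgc
The window of Hspb1, whose values were highest in SNL and lowest in SNL plus UNC0638, held no heat shock element of 3 units. It held 2 elements of 2 units, GAANNTTC, a motif searched for after the data were seen and found in 13 of the 55 windows (23.6%) and in 8.59% of all windows. It lies within every heat shock element of 3 units, and the stretch that holds both is chr12:26432383-26432450, minus strand.
Hspb1: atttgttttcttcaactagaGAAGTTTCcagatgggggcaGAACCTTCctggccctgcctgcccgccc
A match is a run of letters and does not show that a factor bound there in these ganglia.

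Values are read counts per gene that the authors had scaled by 1 factor per library, called scaled counts here, and they compare libraries within a gene, not genes with each other. Totals were 9450045 to 11347920 per library, from an estimated 6127897 to 24367788 reads. Sensory neuron markers (13 of 14 listed genes found) summed to 142902 to 220523 in SNL plus UNC0638, 168169 to 217681 in SNL and 322560.4 to 367795 in Sham. The 10 macrophage markers summed to 9289.9 to 16259 in SNL plus UNC0638, 12346 to 20269.5 in SNL and 2179.7 to 5029.8 in Sham. In bulk tissue, fewer cells of a type and less RNA per cell cannot be told apart. Skeletal muscle markers (16 of 17 found) summed to 83625 in SNL plus UNC0638 replicate 1 and to 177 to 602 in the other 10 libraries. Among the Sham libraries, replicate 3 held the lowest value for 37 of the 66 tested chaperone genes and replicate 2 the highest for 37. The replicates numbered 3 of SNL and Sham departed from their group means alike (r = 0.431 across genes, which are not independent replicates). A second model held 1 term that marks these 2 libraries together with every library of SNL plus UNC0638. Only Sham and SNL libraries set the size of the term, since it is constant within SNL plus UNC0638. Whether that group shares the departure could therefore not be tested. Its replicates 1, 2 and 3 correlated with SNL replicate 3 at r = 0.429, -0.166 and -0.446. With Sham replicate 3 the values were -0.102, 0.255 and -0.104. These values rest on departures from each library's own group mean, so that a departure shared by a whole group cannot be seen in them. The 3 comparisons share libraries.

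Many chaperone genes were lower in SNL than in Sham. Of 66 tested genes, 25 fell (37.9%) and 3 rose (4.55%), where 23.4% of all tested genes fell and 24.8% rose (limma, Benjamini-Hochberg adjusted p under 0.05). The 3 that rose were the small heat shock protein gene Hspb1, the HSP70 gene Hspa2 and the J-domain gene Dnajb5. Both genes of the mitochondrial chaperonin fell, as did both cytosolic HSP90 genes, all 4 class A J-domain genes, 11 of 23 tested class C genes and 2 of 12 tested class B genes. The median log2 fold change was -0.32 over these 66 genes and -0.0033 over all genes tested. With the model term 31 genes were called lower, the 25 and Dnajb3, Dnajb9, Dnajb14, Dnajc8, Dnajc16 and Hspa4, and 3 higher. The term marks 1 of 4 libraries in both SNL and Sham, so that it left these fold changes unchanged and altered only the spread. Its added calls are therefore no separate support. Groups did not overlap for 25 lower and 3 higher chaperone genes, against 21.2% and 22.1% of all genes. Sensory neuron markers had 11 of 13 genes called lower and 1 higher, and their part in the chaperone result was not tested.

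Fewer genes differed between the ligated groups than between SNL and Sham, among the chaperone genes and over all tested genes alike. In SNL plus UNC0638 against SNL, 10 of 66 genes were lower (15.2%) and 4 higher (6.06%), where 14.3% of all tested genes were lower and 13.5% higher. Hspb1 and Hspa2, both higher in SNL than in Sham, were lower with UNC0638. So were Hspa9, Hspe1, Dnaja1, Dnajc7, Dnajc8, Dnajc9, Dnajc12 and Dnajc30. The HSP110 gene Hsph1 and the J-domain gene Dnajc27, both lower in SNL than in Sham, were higher with UNC0638, as was Dnajb13. The remaining higher gene, Dnajb7, had no SNL or Sham library at 10 and passed the filter on low values only through SNL plus UNC0638, the group in which it was high, so that its call is no support. Without such genes 3 were higher. The median log2 fold change was -0.09, against 0.0066 over all genes, and 17 lower and 7 higher genes (5 without those that needed SNL plus UNC0638 to pass the filter) did not overlap between groups, as was so for 19.9% and 17.7% of all genes. The 10 lower calls became 4 and 6 without SNL plus UNC0638 replicates 2 and 3, and 6, 5 and 6 without SNL replicates 1, 2 and 4. The 4 higher calls became 2 without SNL plus UNC0638 replicate 1 or SNL replicate 1, and 7 without Sham replicate 3. With the model term, 2 genes were called lower (Hspb1 and Dnajc7) and, Dnajb7 set aside, 2 higher (Dnajb13 and Hspa1b).

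Set against Sham, ganglia with both ligation and UNC0638 had 36 of 66 chaperone genes lower (54.5%) and 6 higher (9.09%), where 26.0% of all tested genes were lower and 25.5% higher. Of the 6 higher ones, Hspb7 and Dnajb7 passed the filter only through the SNL plus UNC0638 libraries, in which they were high, and their calls are no support. The other 4 were Hspa1b, Hspa2, Dnajb5 and Dnajb13, and of these only Dnajb5 was still called without SNL plus UNC0638 replicate 3. The model term kept the calls of Hspa1b and Dnajb13 and ended those of Hspa2 and Dnajb5 (adjusted p = 0.0568 and 0.0973). With Hspb7 and Dnajb7 set aside, the term called 27 genes lower, Hspa12a and Hspbp1 newly so, and 2 higher. The median log2 fold change was -0.50 for the chaperone genes and -0.01 for all genes. All 4 class A J-domain genes, both chaperonin genes, both cytosolic HSP90 genes and 15 of 23 tested class C genes were lower. Groups did not overlap for 33 lower and 5 higher genes (3 without Hspb7 and Dnajb7), against 24.9% and 23.4% of all genes. Sensory neuron markers were lower for 11 of 13 genes, and their part in the counts was not tested.

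**Figure D1:**
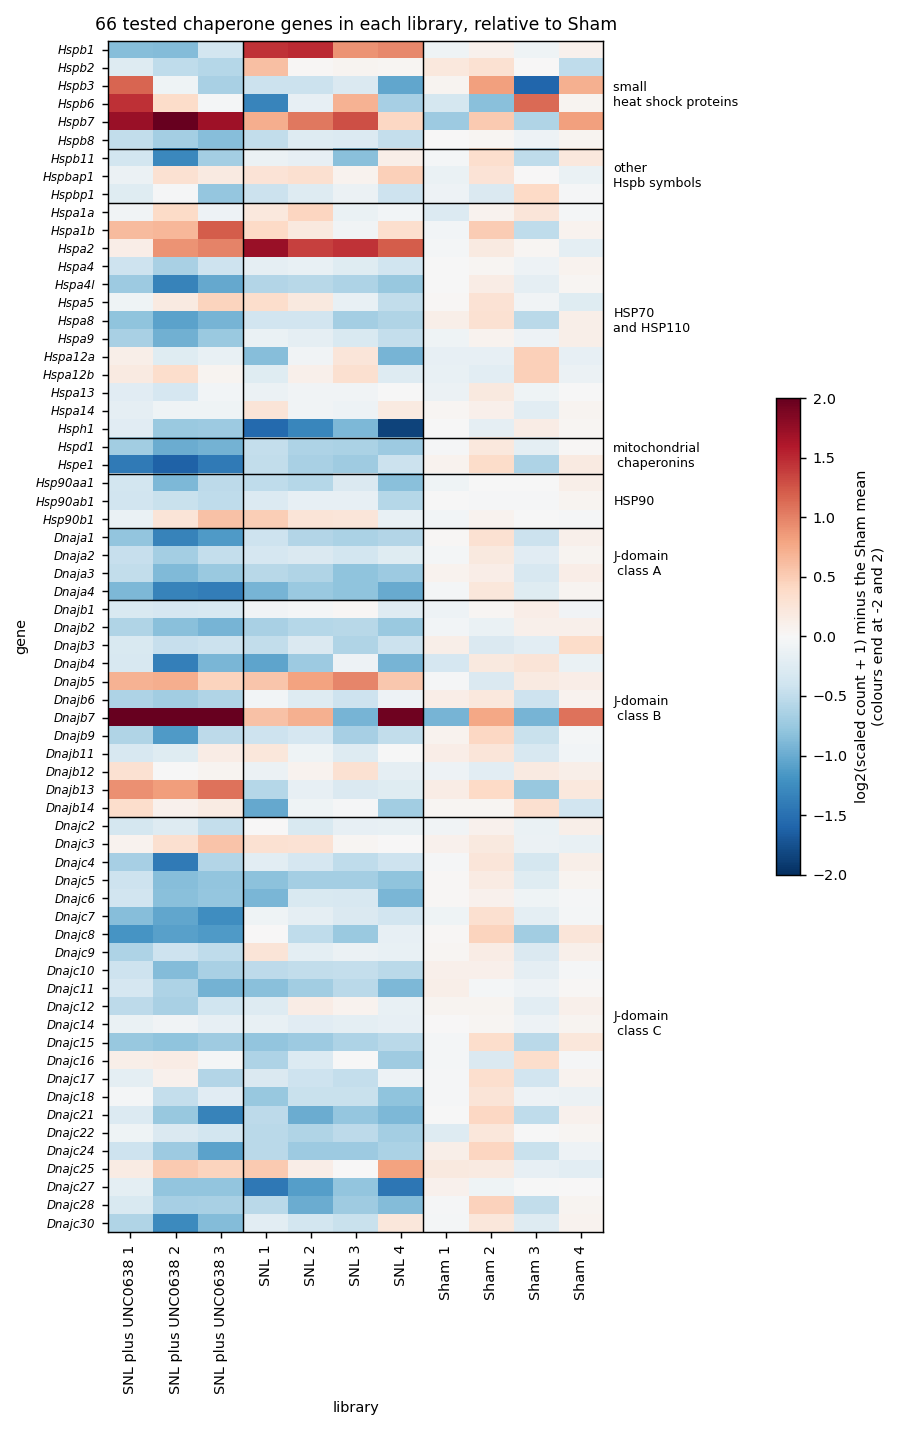
Each row is one of the 66 tested chaperone genes and each column a library, coloured by log2(scaled count + 1) minus the mean of the 4 Sham libraries (colours end at -2 and 2). Hspb1 and Hspa2 are red in all 4 SNL libraries, and the class A J-domain genes and the chaperonin genes are blue in all SNL plus UNC0638 and SNL libraries.

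Hspb1 was the one small heat shock protein gene with calls in all 3 comparisons. It stood at 1808, 1785 and 2521 in the SNL plus UNC0638 libraries, at 8890.4, 9164, 6087 and 6339 in SNL and at 3069, 3446, 3059 and 3465 in Sham. All SNL libraries lay above all others, and all SNL plus UNC0638 libraries lay below every Sham library. Hspb1 rose 2.34-fold in SNL against Sham (log2 fold change 1.20, SE 0.16, adjusted p = 0.000211). With UNC0638 it was 3.74-fold lower than in SNL (log2 fold change -1.90, SE 0.18, adjusted p = 0.000159) and 1.60-fold lower than in Sham (log2 fold change -0.69, SE 0.18, adjusted p = 0.00705). All 3 calls held in each of the 11 fits that left out a library, though leaving out a library of the group not compared could alter only the spread. With replicate 1 of SNL plus UNC0638, the library with muscle transcripts, left out, the difference from SNL had a log2 fold change of -1.82 (adjusted p = 0.000914). Hspb1 alone among the 66 genes was called higher in SNL and lower in SNL plus UNC0638, each against Sham. The Hspb1 call in SNL plus UNC0638 against Sham was lost under the model term (log2 fold change -0.50).

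Hspb8 (HSP22), which delivers damaged proteins to autophagy together with Bag3, was lower in both ligated groups. Its scaled counts were 2850.3, 2491 and 2221 in SNL plus UNC0638, 2839.6, 3338, 3303 and 2889 in SNL and 4039, 4102, 3743 and 4152 in Sham, with every Sham library above all ligated ones. Hspb8 fell in SNL against Sham (log2 fold change -0.38, SE 0.11, adjusted p = 0.0142). It was lower in SNL plus UNC0638 than in Sham (log2 fold change -0.68, SE 0.12, adjusted p = 0.00086), while its difference from SNL did not pass (log2 fold change -0.30, 95% interval -0.56 to -0.04, adjusted p = 0.0777). Bag3 averaged 999 ± 186 in SNL plus UNC0638, 758 ± 308 in SNL and 1137 ± 555 in Sham (SD, n = 3, 4 and 4, as for all means below) and was called in no comparison (adjusted p 0.158 to 0.827). Hspb8 passed in SNL plus UNC0638 against SNL when SNL plus UNC0638 replicate 1 was left out. Bag3 passed in SNL against Sham when SNL replicate 3 was left out and under the model term (log2 fold change -0.56, adjusted p = 0.00839). Bag3 passed in SNL plus UNC0638 against Sham under the model term (log2 fold change -0.91, adjusted p = 0.00697).

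The other small heat shock proteins had low values. Hspb7, known from heart muscle, stood at 19.7, 24.8 and 19.3 in SNL plus UNC0638, 9.41, 12, 14.3 and 7.30 in SNL and 2.78, 7.95, 3.12 and 9.99 in Sham. Its SNL plus UNC0638 libraries lay above all others. Since only 2 SNL libraries and no Sham library reached 10, Hspb7 passed the filter through the group in which it was high, and its values are given without a test. The replicate rich in muscle transcripts was not its highest library. Hspb3 and Hspb6, which are known from muscle, were both highest in that replicate, at 16.1 and 70.9, and were called in no comparison (adjusted p 0.205 to 0.862). Hspb2, another muscle form, averaged 22.8 ± 2.85 in SNL plus UNC0638, 36 ± 8.0 in SNL and 31.9 ± 7.57 in Sham and was not called (adjusted p 0.0929 to 0.562).

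Hspb9, known from testis, was under the filter, with an estimated 4, 2 and 5 reads in SNL plus UNC0638, 1, 1, 0 and 1 in SNL and 0, 0, 0 and 2 in Sham, and was not tested. The germline markers Prm1, Prm2, Tnp1, Acrv1 and Dazl were at 0 in all libraries, and the 8 markers of that list summed to 0 to 2.58 in SNL plus UNC0638, 0.857 to 3.76 in SNL and 3.07 to 11.1 in Sham. Of the remaining Hspb symbols, Hspbap1 and Hspbp1, a nucleotide exchange factor of HSP70, were not called (adjusted p 0.152 to 0.87). Hspb11, a part of the transport machinery of cilia, averaged 43.7 ± 13.6 in SNL plus UNC0638, 63.2 ± 16.3 in SNL and 75 ± 18.2 in Sham and was lower in SNL plus UNC0638 than in Sham (log2 fold change -0.78, SE 0.30, adjusted p = 0.0445). The Hspb11 call in SNL plus UNC0638 against Sham was lost when any 1 of SNL plus UNC0638 replicates 2 and 3, SNL replicates 1 and 2 and Sham replicates 1, 2 and 4 was left out and under the model term (log2 fold change -0.24). Hspbp1 passed in SNL plus UNC0638 against Sham under the model term (log2 fold change -0.64, adjusted p = 0.0264).

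**Figure D2:**
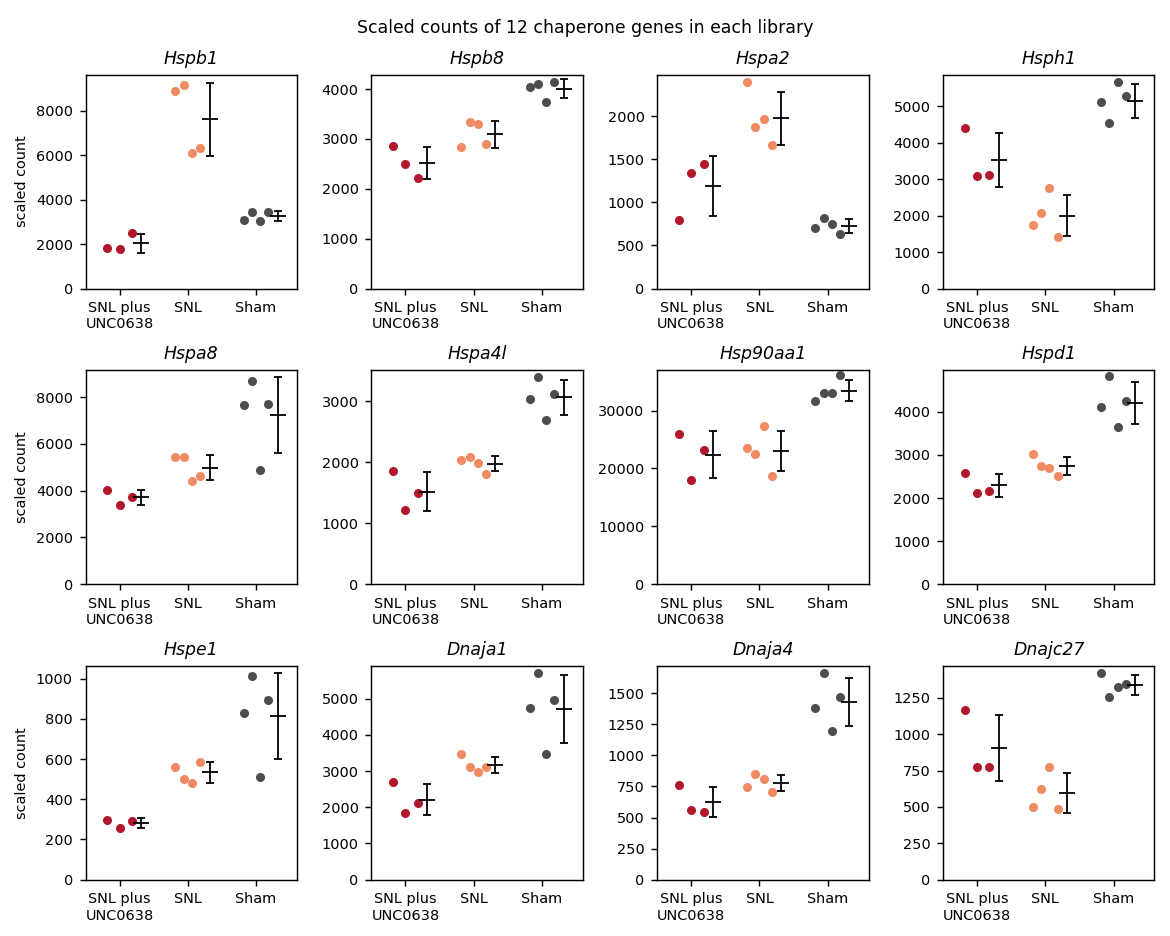
Scaled counts of 12 chaperone genes, 1 point per library, with the mean ± SD beside each group (n = 3 for SNL plus UNC0638, n = 4 for SNL and for Sham), each axis starting at 0. Hspb1 and Hspa2 are highest in SNL, Hsph1 and Dnajc27 are lowest there, and Hspe1 is lowest in SNL plus UNC0638.

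In the HSP70 family, Hspa2 rose. Hspa2, an HSP70 known for its high level in testis and also present in nervous tissue, stood at 791, 1338 and 1439.6 in SNL plus UNC0638, at 2393, 1867, 1967 and 1667 in SNL and at 699.8, 820.3, 743 and 632 in Sham. Every SNL library was above every other library, and SNL plus UNC0638 replicate 1 lay within the Sham range. Hspa2 rose 2.73-fold in SNL against Sham (log2 fold change 1.44, SE 0.18, adjusted p = 0.000164) and was lower with UNC0638 than without (log2 fold change -0.77, SE 0.20, adjusted p = 0.016). It was higher in SNL plus UNC0638 than in Sham (log2 fold change 0.67, SE 0.20, adjusted p = 0.0144). Between SNL plus UNC0638 and SNL, the model term gave a log2 fold change of -0.79 (adjusted p = 0.0682), and leaving out SNL plus UNC0638 replicate 1 gave a log2 fold change of -0.50 (adjusted p = 0.0462). The Hspa2 call in SNL plus UNC0638 against Sham was lost when any 1 of SNL plus UNC0638 replicates 2 and 3 was left out and under the model term (log2 fold change 0.65).

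Of the HSP110 branch, whose proteins recharge HSP70 with ATP, Hsph1 (HSP105) stood at 4399, 3085 and 3110.1 in SNL plus UNC0638, 1746, 2084, 2769 and 1427 in SNL and 5115, 4534, 5664 and 5299 in Sham. The 3 groups did not overlap, with SNL lowest and Sham highest. Hsph1 fell 2.57-fold in SNL against Sham (log2 fold change -1.40, SE 0.19, adjusted p = 0.000212), the largest fall in that comparison among the 66 genes, and was 1.76-fold higher with UNC0638 than in SNL (log2 fold change 0.84, SE 0.21, adjusted p = 0.0129). With replicate 1 of SNL plus UNC0638, in which muscle markers were high, left out, the second difference had a log2 fold change of 0.67 (adjusted p = 0.0503), and under the model term a log2 fold change of 0.51 (adjusted p = 0.15). Against Sham, Hsph1 was lower in SNL plus UNC0638 (log2 fold change -0.56, SE 0.21, adjusted p = 0.0399). The Hsph1 call in SNL plus UNC0638 against Sham was lost when any 1 of SNL plus UNC0638 replicates 2 and 3, SNL replicate 2 and Sham replicates 1, 3 and 4 was left out.

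Its relative Hspa4l stood at 1850.3, 1208 and 1496 in SNL plus UNC0638, 2031, 2089, 1994 and 1799 in SNL and 3029.96, 3400.3, 2699 and 3120.4 in Sham, with Sham above all ligated libraries. Hspa4l fell in SNL against Sham (log2 fold change -0.63, SE 0.13, adjusted p = 0.00264) and was lower in SNL plus UNC0638 than in Sham (log2 fold change -1.03, SE 0.14, adjusted p = 0.000288). Hspa4, also of the HSP110 type, was lower in SNL plus UNC0638 than in Sham (log2 fold change -0.49, SE 0.11, adjusted p = 0.00335) and missed the threshold in SNL against Sham (adjusted p = 0.0667). Between SNL plus UNC0638 and SNL, Hspa4l and Hspa4 gave log2 fold changes of -0.40 and -0.25, neither called (adjusted p = 0.0573 and 0.108). Hspa4 passed in SNL against Sham when Sham replicate 3 was left out and under the model term (log2 fold change -0.24, adjusted p = 0.0472). Hspa4l passed in SNL plus UNC0638 against SNL when any 1 of SNL plus UNC0638 replicate 1 and Sham replicate 3 was left out.

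Hspa8, the constitutive HSP70 of the cytosol that also strips clathrin from vesicles, stood at 4049, 3377 and 3711 in SNL plus UNC0638, 5427, 5438, 4433 and 4648 in SNL and 7667, 8713, 4889.6 and 7707 in Sham. All SNL plus UNC0638 libraries were below all others, and Sham replicate 3 lay among the SNL libraries. Hspa8 fell in SNL against Sham (log2 fold change -0.51, SE 0.17, adjusted p = 0.0253) and was lower in SNL plus UNC0638 than in Sham (log2 fold change -0.94, SE 0.18, adjusted p = 0.00152), while the difference from SNL did not pass (log2 fold change -0.42, 95% interval -0.82 to -0.03, adjusted p = 0.0986). Hspa9 (mortalin), the HSP70 of mitochondria that draws imported proteins into the matrix, stood at 2978, 2387 and 2792 in SNL plus UNC0638, 4279.6, 4132, 3797 and 3361 in SNL and 4407, 4909, 4336 and 5081 in Sham. Its 3 groups were ordered without overlap. The difference of SNL from Sham did not pass (adjusted p = 0.0762), but Hspa9 was lower in SNL plus UNC0638 than in SNL (log2 fold change -0.52, SE 0.13, adjusted p = 0.0123) and than in Sham (log2 fold change -0.79, SE 0.13, adjusted p = 0.000553). The Hspa8 call in SNL against Sham was lost when any 1 of SNL replicates 3 and 4 and Sham replicates 1, 2 and 4 was left out. The Hspa9 call in SNL plus UNC0638 against SNL was lost when SNL plus UNC0638 replicate 2 was left out and under the model term (log2 fold change -0.45). Hspa8 passed in SNL plus UNC0638 against SNL when Sham replicate 3 was left out.

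The stress-inducible HSP70 genes Hspa1a and Hspa1b are nearly identical, and their values were not whole multiples of 1 read in any of the 11 libraries (off by over 0.05 reads), so that their split is uncertain. Hspa1a averaged 541 ± 106 in SNL plus UNC0638, 558 ± 101 in SNL and 513 ± 74.3 in Sham and was called in no comparison (adjusted p 0.578 to 0.86). Hspa1b averaged 142 ± 33.9 in SNL plus UNC0638, 90.8 ± 12.5 in SNL and 79.9 ± 23.2 in Sham and was higher in SNL plus UNC0638 than in Sham (log2 fold change 0.84, SE 0.24, adjusted p = 0.0128). Their sum averaged 682 ± 93.4 in SNL plus UNC0638, 649 ± 106 in SNL and 593 ± 72.3 in Sham, ranges that overlap. The remaining HSP70 genes Hspa12a, Hspa12b, Hspa13 and Hspa14 were called in no comparison (adjusted p 0.136 to 0.935). The Hspa1b call in SNL plus UNC0638 against Sham was lost when SNL plus UNC0638 replicate 3 was left out. Hspa12a passed in SNL against Sham when SNL replicate 3 was left out. Hspa12a passed in SNL plus UNC0638 against Sham under the model term (log2 fold change -0.66, adjusted p = 0.0429).

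Both cytosolic HSP90 genes were lower in SNL than in Sham. Hsp90aa1, the stress-inducible form, stood at 25872, 17992 and 23231 in SNL plus UNC0638, 23522, 22552, 27262 and 18737 in SNL and 31581, 33056, 33071 and 36082 in Sham, and all Sham libraries were above all ligated ones. It fell in SNL against Sham (log2 fold change -0.55, SE 0.14, adjusted p = 0.00849), and SNL plus UNC0638 was lower than Sham as well (log2 fold change -0.60, SE 0.16, adjusted p = 0.00792) with no call between the ligated groups (log2 fold change -0.05, 95% interval -0.39 to 0.30, adjusted p = 0.843). Hsp90ab1, the constitutive form, averaged 21001 ± 949.9 in SNL plus UNC0638, 23431 ± 2946 in SNL and 28598 ± 853 in Sham. It fell in SNL against Sham by a narrow margin (log2 fold change -0.30, SE 0.11, adjusted p = 0.0486), and SNL plus UNC0638 was lower than Sham (log2 fold change -0.45, SE 0.12, adjusted p = 0.0102). How the authors assigned reads shared with near-identical copies elsewhere in the genome was not stated. The Hsp90ab1 call in SNL against Sham was lost when any 1 of SNL plus UNC0638 replicates 2 and 3, SNL replicates 1 and 4 and Sham replicates 1, 2, 3 and 4 was left out.

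The mitochondrial chaperonin genes Hspd1 (HSP60) and Hspe1 (HSP10), which share the promoter region printed above, both fell in SNL. Hspd1 stood at 2590.2, 2113 and 2169.7 in SNL plus UNC0638, 3016, 2739.7, 2705 and 2519.99 in SNL and 4112, 4831, 3638 and 4259 in Sham. All Sham libraries lay above all ligated ones. Hspd1 fell 1.53-fold in SNL against Sham (log2 fold change -0.61, SE 0.12, adjusted p = 0.00144). Hspe1 stood at 296, 255 and 294 in SNL plus UNC0638, 562, 502, 481 and 587 in SNL and 831, 1012, 513 and 895 in Sham, where replicate 3 lay within the SNL range. Hspe1 fell 1.52-fold in SNL against Sham (log2 fold change -0.57, SE 0.18, adjusted p = 0.0227). Between SNL plus UNC0638 and SNL, Hspe1 was 1.89-fold lower (log2 fold change -0.92, SE 0.20, adjusted p = 0.00664), and Hspd1 did not pass (log2 fold change -0.26, 95% interval -0.54 to 0.01, adjusted p = 0.136). Whether the 2 genes differ in this was not tested. Against Sham, SNL plus UNC0638 had lower Hspe1 (log2 fold change -1.48, SE 0.20, adjusted p = 0.000225) and Hspd1 (log2 fold change -0.88, SE 0.13, adjusted p = 0.000333). The Hspe1 call in SNL against Sham was lost when any 1 of SNL replicates 2 and 3 and Sham replicates 1, 2 and 4 was left out. The Hspe1 call in SNL plus UNC0638 against SNL was lost under the model term (log2 fold change -0.54).

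The main HSP70 and HSP90 of the ER were not called in SNL against Sham. Hspa5 (BiP), the HSP70 of the ER, stood at 5998, 7161 and 8676 in SNL plus UNC0638, 8085, 7280.4, 5723 and 4487 in SNL and 6410.5, 7758, 6052 and 5364 in Sham. Hsp90b1 (GRP94), the HSP90 of the ER, stood at 4537, 5953 and 7501 in SNL plus UNC0638, 7052, 5975, 5926 and 4517 in SNL and 4811, 5251, 4969 and 4935 in Sham. The groups overlapped for both genes. In SNL against Sham, neither Hspa5 (log2 fold change -0.02, 95% interval -0.45 to 0.40, adjusted p = 0.928) nor Hsp90b1 (log2 fold change 0.22, 95% interval -0.14 to 0.58, adjusted p = 0.299) was called. The ER J-domain genes Dnajb11 (ERdj3) and Dnajc3 (P58IPK) were not called in any comparison either (adjusted p 0.513 to 0.888 for Dnajb11 and 0.085 to 0.42 for Dnajc3). Dnajb9 (ERdj4) was lower in SNL plus UNC0638 than in Sham (log2 fold change -0.75, SE 0.20, adjusted p = 0.00836) but not called in SNL against Sham (adjusted p = 0.051). Dnajc10 (ERdj5), a disulfide reductase, fell in SNL against Sham (log2 fold change -0.51, SE 0.12, adjusted p = 0.00413), and it was lower in SNL plus UNC0638 than in Sham too (log2 fold change -0.64, SE 0.13, adjusted p = 0.00166). All 3 genes with an ER stress element printed above (Hspa5, Hsp90b1 and Dnajc3) had no call in any comparison. The 5 genes with a heat shock element of 3 units (Hspe1, Hspd1, Hsph1, Hspa8 and Dnaja1) fell in SNL against Sham. Of these, Hspe1 and Hspd1 share the same matches. In that comparison 37.9% of the tested chaperone genes and 23.4% of all tested genes fell. Among the other tested genes with an element of 2 units, Dnajc18 and Hspb8 fell and Hspb1 rose. Dnajb1, Dnajb6, Hspa9 and Hspb6 were not called. Of the 5 genes with 3 units, Hsph1 was higher and Hspe1 and Dnaja1 were lower in SNL plus UNC0638 against SNL. Hspd1 and Hspa8 were not called there. All 5 were lower in SNL plus UNC0638 than in Sham, where 54.5% of the tested chaperone genes and 26.0% of all tested genes were. Whether these small groups differ was not tested. The Dnajb9 call in SNL plus UNC0638 against Sham was lost under the model term (log2 fold change -0.43). Dnajc3 passed in SNL plus UNC0638 against Sham when SNL plus UNC0638 replicate 1 was left out. Dnajb9 passed in SNL against Sham when any 1 of SNL plus UNC0638 replicate 2 and Sham replicate 3 was left out and under the model term (log2 fold change -0.47, adjusted p = 0.0165).

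**Figure D3:**
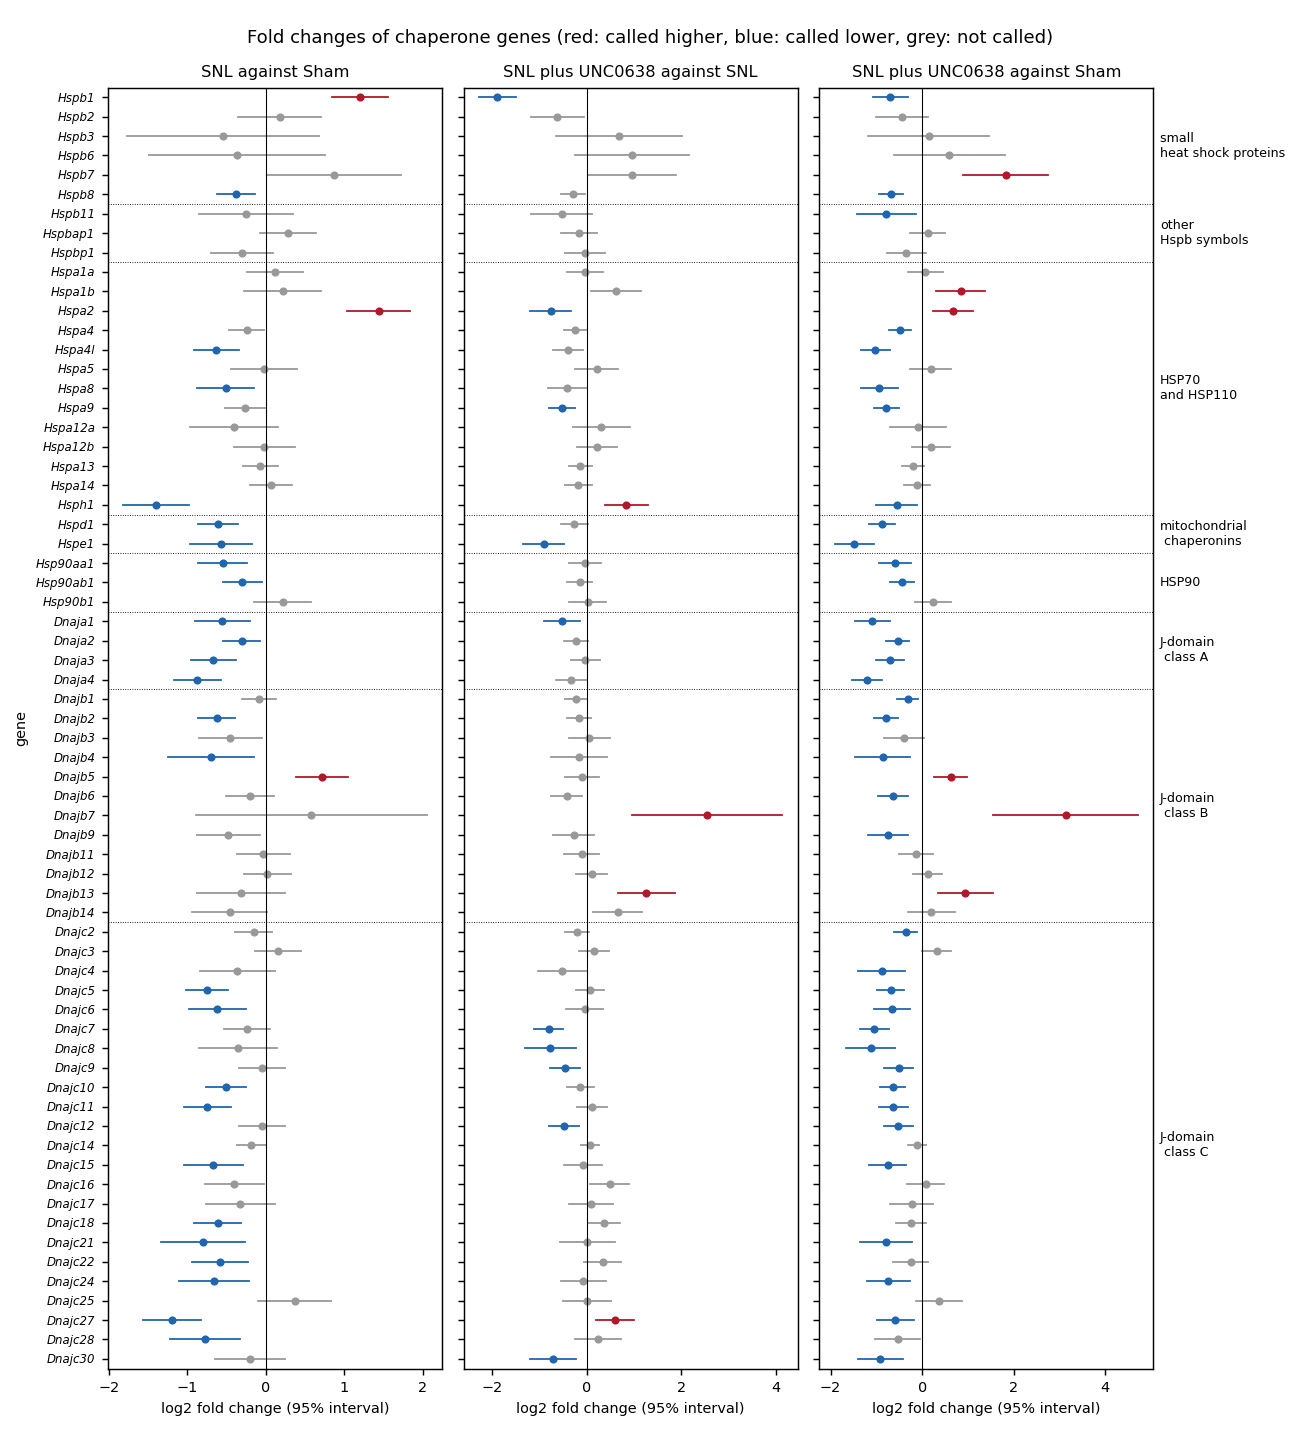
Log2 fold changes of the 66 tested chaperone genes with 95% intervals, in 3 panels that share the gene axis: SNL against Sham (left), SNL plus UNC0638 against SNL (middle) and against Sham (right). Red marks genes called higher, blue genes called lower (adjusted p under 0.05) and grey genes not called, with 25 blue genes on the left, 10 in the middle and 36 on the right. The red points of Dnajb7 and Hspb7 belong to genes that passed the filter only through SNL plus UNC0638.

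J-domain proteins of class A are general partners of HSP70, and all 4 measured genes fell in SNL against Sham, where 23.4% of all tested genes did. Dnaja1, a cytosolic partner of Hspa8, stood at 2692, 1830.2 and 2114 in SNL plus UNC0638, 3481, 3108, 2985 and 3099 in SNL and 4734, 5714, 3464 and 4969 in Sham. All SNL plus UNC0638 libraries were below all others, and Sham replicate 3 was just below the highest SNL library. Dnaja1 fell in SNL against Sham (log2 fold change -0.55, SE 0.16, adjusted p = 0.0147) and was lower in SNL plus UNC0638 than in SNL (log2 fold change -0.53, SE 0.18, adjusted p = 0.0406) and than in Sham (log2 fold change -1.09, SE 0.18, adjusted p = 0.000551). Dnaja4 stood at 763, 563 and 544 in SNL plus UNC0638, 745, 848, 809 and 703 in SNL and 1380.04, 1664, 1198 and 1469 in Sham, with a clear gap below the Sham libraries. It fell 1.84-fold in SNL against Sham (log2 fold change -0.87, SE 0.14, adjusted p = 0.00045) and was lower in SNL plus UNC0638 than in Sham (log2 fold change -1.20, SE 0.15, adjusted p = 0.000159). Dnaja3 (TID1), which works with Hspa9 in mitochondria, fell in SNL against Sham (log2 fold change -0.67, SE 0.13, adjusted p = 0.00154). The cytosolic Dnaja2 fell too (log2 fold change -0.31, SE 0.11, adjusted p = 0.0363). The Dnaja1 call in SNL plus UNC0638 against SNL was lost when any 1 of SNL plus UNC0638 replicates 2 and 3, SNL replicates 1, 2 and 4 and Sham replicates 1 and 4 was left out and under the model term (log2 fold change -0.28). The Dnaja2 call in SNL against Sham was lost when any 1 of SNL replicates 1, 2, 3 and 4 and Sham replicates 1, 2 and 4 was left out.

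Class B J-domain genes were split. Dnajb1 (HSP40), the heat-inducible partner of HSP70, averaged 577 ± 6.05 in SNL plus UNC0638, 683 ± 57.4 in SNL and 722 ± 53.8 in Sham and was not called in SNL against Sham (log2 fold change -0.08, 95% interval -0.30 to 0.13, adjusted p = 0.507). It was lower in SNL plus UNC0638 than in Sham (log2 fold change -0.32, SE 0.11, adjusted p = 0.0243). Dnajb2 (HSJ1), a neuronal form that guides proteins to the proteasome, averaged 933 ± 113 in SNL plus UNC0638, 1042 ± 62.8 in SNL and 1611 ± 133 in Sham. It fell in SNL against Sham (log2 fold change -0.63, SE 0.11, adjusted p = 0.000714), as did Dnajb4 (log2 fold change -0.70, SE 0.25, adjusted p = 0.039), a cytosolic relative of Dnajb1. Dnajb5, another relative, was the 1 J-domain gene that rose, standing at 185, 189 and 156 in SNL plus UNC0638, 167, 201, 226 and 166 in SNL and 113, 93.2, 129 and 125 in Sham. All ligated libraries were above all Sham ones, both in SNL against Sham (log2 fold change 0.72, SE 0.15, adjusted p = 0.00267) and in SNL plus UNC0638 against Sham (log2 fold change 0.62, SE 0.17, adjusted p = 0.00883). Dnajb6, which suppresses aggregates of polyglutamine proteins, was lower in SNL plus UNC0638 than in Sham (log2 fold change -0.63, SE 0.15, adjusted p = 0.0048). Dnajb3, Dnajb12 and Dnajb14 were called in no comparison (adjusted p 0.0573 to 0.907). The Dnajb1 call in SNL plus UNC0638 against Sham was lost when any 1 of SNL plus UNC0638 replicates 2 and 3 and Sham replicate 2 was left out. The Dnajb4 call in SNL against Sham was lost when any 1 of SNL plus UNC0638 replicate 3, SNL replicates 1, 2 and 4 and Sham replicates 2, 3 and 4 was left out. The Dnajb5 and Dnajb6 calls in SNL plus UNC0638 against Sham were lost under the model term (log2 fold changes 0.40 and -0.33). Dnajb3 passed in SNL against Sham when any 1 of Sham replicates 2 and 3 was left out and under the model term (log2 fold change -0.45, adjusted p = 0.0473). Dnajb14 passed in SNL against Sham when SNL replicate 3 was left out and under the model term (log2 fold change -0.46, adjusted p = 0.0452). Dnajb14 passed in SNL plus UNC0638 against SNL when any 1 of SNL replicates 2 and 3 and Sham replicate 3 was left out.

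Of the class B genes with low values, Dnajb13 was higher with UNC0638. Dnajb7, known from testis, stood at 10.8, 15.5 and 23.2 in SNL plus UNC0638, 1.88, 2.14, 0 and 6.38 in SNL and 0, 2.27, 0 and 3.07 in Sham. These values come from an estimated 12, 10 and 18 reads in SNL plus UNC0638, 2, 5, 0 and 7 in SNL and 0, 2, 0 and 4 in Sham. All SNL plus UNC0638 libraries lay above all others, but since they alone carried Dnajb7 past the filter, no test is given. Dnajb13, a part of the axoneme of cilia and sperm tails, stood at 61.9, 58.8 and 69.7 in SNL plus UNC0638, 21.6, 28.7, 26.3 and 27.4 in SNL and 36.2, 43.2, 18.7 and 37.7 in Sham. Its SNL plus UNC0638 libraries were the highest as well. Dnajb13 was 2.44-fold higher in SNL plus UNC0638 than in SNL (log2 fold change 1.26, SE 0.28, adjusted p = 0.00734) and higher than in Sham (log2 fold change 0.94, SE 0.28, adjusted p = 0.0137). The call against SNL held under the model term, with a log2 fold change of 1.63 (adjusted p = 0.0108). Dnajb8 was at 0 in all 11 libraries, which allows up to 3 reads per library, or 1.29 to 4.67 scaled counts, by counting error alone. Dnajc5b and Dnajc5g, also under the filter, had at most 4 and 1 estimated reads in a library and were not tested. The Dnajb13 call in SNL plus UNC0638 against Sham was lost when SNL plus UNC0638 replicate 3 was left out.

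**Figure D4:**
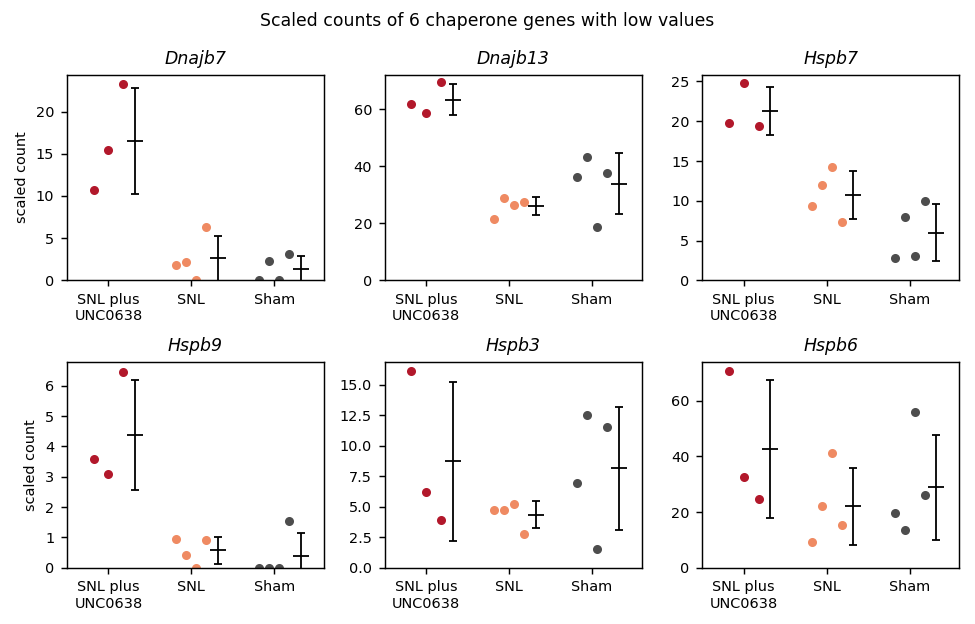
Scaled counts of 6 chaperone genes with low values, 1 point per library, with the mean ± SD beside each group (n = 3 for SNL plus UNC0638, n = 4 for SNL and for Sham). For Dnajb7, Dnajb13, Hspb7 and Hspb9 all SNL plus UNC0638 points lie above the other groups, while for Hspb3 and Hspb6 the highest point is SNL plus UNC0638 replicate 1.

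Class C J-domain proteins have specialised tasks. In SNL against Sham, 11 of the 23 tested genes fell (47.8%) and 0 rose, where 23.4% of all tested genes fell and 24.8% rose. Dnajc27, which encodes a small GTPase with a J-domain, stood at 1167, 777 and 773 in SNL plus UNC0638, 498, 622, 776 and 488 in SNL and 1423, 1255, 1326 and 1348 in Sham. All Sham libraries were above all others, and SNL plus UNC0638 replicates 2 and 3 lay close to the highest SNL library. Dnajc27 fell 2.25-fold in SNL against Sham (log2 fold change -1.19, SE 0.17, adjusted p = 0.000264). It was 1.52-fold higher with UNC0638 than in SNL (log2 fold change 0.60, SE 0.18, adjusted p = 0.0312), a difference that without SNL plus UNC0638 replicate 1 had a log2 fold change of 0.40 (adjusted p = 0.12). Dnajc5 (cysteine string protein), which guards SNARE proteins on synaptic vesicles, averaged 604 ± 104 in SNL plus UNC0638, 574 ± 31.1 in SNL and 969 ± 112 in Sham and fell in SNL against Sham (log2 fold change -0.75, SE 0.12, adjusted p = 0.000603). Dnajc6 (auxilin), which recruits Hspa8 to uncoat clathrin vesicles of neurons, averaged 2308 ± 402 in SNL plus UNC0638, 2416 ± 577 in SNL and 3628 ± 175 in Sham (log2 fold change -0.62, SE 0.17, adjusted p = 0.00967 for SNL against Sham). The Dnajc27 call in SNL plus UNC0638 against SNL was lost when any 1 of SNL plus UNC0638 replicate 1 and SNL replicates 1, 2 and 4 was left out and under the model term (log2 fold change 0.40).

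Dnajc11, which belongs to the machinery of the inner membrane folds, fell in SNL against Sham (log2 fold change -0.74, SE 0.14, adjusted p = 0.00107), and so did Dnajc15, linked to protein import and respiration (log2 fold change -0.67, SE 0.17, adjusted p = 0.00723). The others that fell, beside Dnajc10, were Dnajc18, Dnajc21, Dnajc22, Dnajc24 and Dnajc28, with log2 fold changes of -0.80 to -0.59. In SNL plus UNC0638 against Sham, the 15 lower class C genes were Dnajc10, Dnajc11, Dnajc12, Dnajc15, Dnajc2, Dnajc21, Dnajc24, Dnajc27, Dnajc30, Dnajc4, Dnajc5, Dnajc6, Dnajc7, Dnajc8 and Dnajc9, with log2 fold changes of -1.13 to -0.36. They are 65.2% of the tested class C genes, where 26.0% of all tested genes were lower. Dnajc14, Dnajc16, Dnajc17 and Dnajc25 were called in no comparison (adjusted p 0.0729 to 0.984). The Dnajc21 call in SNL against Sham was lost when any 1 of SNL replicate 2 and Sham replicate 2 was left out. The Dnajc24 call in SNL against Sham was lost when any 1 of Sham replicates 1 and 2 was left out. The Dnajc2 call in SNL plus UNC0638 against Sham was lost when any 1 of SNL plus UNC0638 replicate 3 and Sham replicates 2 and 4 was left out and under the model term (log2 fold change -0.29). The Dnajc21 call in SNL plus UNC0638 against Sham was lost when any 1 of SNL plus UNC0638 replicates 2 and 3 and Sham replicates 1, 2 and 4 was left out and under the model term (log2 fold change -0.55). The Dnajc24 call in SNL plus UNC0638 against Sham was lost when SNL plus UNC0638 replicate 3 was left out and under the model term (log2 fold change -0.48). The Dnajc27 call in SNL plus UNC0638 against Sham was lost when any 1 of SNL plus UNC0638 replicates 2 and 3 was left out. The Dnajc15, Dnajc30, Dnajc4 and Dnajc9 calls in SNL plus UNC0638 against Sham were lost under the model term (log2 fold changes -0.52, -0.66, -0.64 and -0.34). Dnajc14 passed in SNL against Sham when Sham replicate 3 was left out. Dnajc16 passed in SNL against Sham when any 1 of SNL replicate 3 and Sham replicate 2 was left out and under the model term (log2 fold change -0.40, adjusted p = 0.011). Dnajc16 passed in SNL plus UNC0638 against SNL when any 1 of SNL replicate 3 and Sham replicate 3 was left out.

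A further set of class C genes was lower with UNC0638 than in SNL. Dnajc7 (TPR2), which passes clients between HSP70 and HSP90, stood at 904, 787 and 684 in SNL plus UNC0638, 1526, 1430.1, 1337 and 1247 in SNL and 1530.3, 2022, 1423 and 1591 in Sham, and all SNL plus UNC0638 libraries were below all others. It was 1.75-fold lower in SNL plus UNC0638 than in SNL (log2 fold change -0.81, SE 0.14, adjusted p = 0.00267). This call held in each of the 11 fits that left out a library, of which the 4 without a Sham library could alter only the spread. It also held under the model term, with a log2 fold change of -0.69 (adjusted p = 0.0272). Dnajc8, a splicing factor, stood at 309, 331 and 319.9 in SNL plus UNC0638, 704, 490.4, 418 and 623 in SNL and 712, 949.8, 432 and 827 in Sham. Replicate 3 was the lowest of the SNL and of the Sham libraries, and all SNL plus UNC0638 libraries were lower still. Dnajc8 was lower in SNL plus UNC0638 than in SNL (log2 fold change -0.77, SE 0.25, adjusted p = 0.0364), and so was Dnajc9, a histone chaperone (log2 fold change -0.46, SE 0.15, adjusted p = 0.0358). Dnajc12, a cochaperone of the aromatic amino acid hydroxylases (log2 fold change -0.48, SE 0.14, adjusted p = 0.0289), and Dnajc30 of the mitochondrion (log2 fold change -0.71, SE 0.22, adjusted p = 0.0338) were lower as well. The Dnajc8 and Dnajc9 calls in SNL plus UNC0638 against SNL were lost when any 1 of SNL plus UNC0638 replicates 1, 2 and 3, SNL replicates 1, 2 and 4 and Sham replicate 1 was left out and under the model term (log2 fold changes -0.23 and -0.29). The Dnajc12 call in SNL plus UNC0638 against SNL was lost when any 1 of SNL plus UNC0638 replicates 1 and 2 and SNL replicates 2 and 3 was left out and under the model term (log2 fold change -0.44). The Dnajc30 call in SNL plus UNC0638 against SNL was lost when any 1 of SNL plus UNC0638 replicates 2 and 3 and SNL replicates 1, 2 and 4 was left out and under the model term (log2 fold change -0.46).

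Genes that work with these chaperones but carry other names were read from listed pathways. Of 29 tested cochaperones of HSP70 and HSP90, 14 fell and 1 rose in SNL against Sham (48.3% and 3.45%, where 23.4% and 24.8% of all tested genes did), with a median log2 fold change of -0.38. Fkbp4 (FKBP52), an HSP90 partner of the steroid receptors, averaged 4802 ± 683 in SNL plus UNC0638, 3778 ± 197 in SNL and 8343 ± 1118 in Sham (log2 fold change -1.13, SE 0.13, adjusted p = 0.000119 for SNL against Sham). Stip1 (HOP), which links HSP70 with HSP90, averaged 1712 ± 406 in SNL plus UNC0638, 1930.4 ± 183 in SNL and 3775 ± 554 in Sham (log2 fold change -0.96, SE 0.16, adjusted p = 0.000521 for SNL against Sham). The 1 that rose was Bag2, which holds back the ubiquitin ligase CHIP (log2 fold change 0.84, SE 0.23, adjusted p = 0.00975), and it was lower with UNC0638 than in SNL (log2 fold change -1.15, SE 0.25, adjusted p = 0.0066). In SNL plus UNC0638 against SNL, 6 of the 29 were lower (20.7%, where 14.3% of all tested genes were) and 0 higher, with a median of -0.19. By p-value the first were Grpel1, the nucleotide exchange factor of Hspa9 (log2 fold change -0.76, SE 0.12, adjusted p = 0.00185), and Cdc37, which loads kinases onto HSP90 (log2 fold change -0.59, SE 0.12, adjusted p = 0.00553). Against Sham, SNL plus UNC0638 had 19 of the 29 lower and 1 higher (65.5% and 3.45%, where 26% and 25.5% of all tested genes were), with a median of -0.61. With the model term the 6 lower calls against SNL became 2. The Bag2 call in SNL plus UNC0638 against SNL was lost under the model term (log2 fold change -0.70).

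Of the heat shock factor list, Hsf1, the main activator of heat shock genes, averaged 354 ± 31.7 in SNL plus UNC0638, 226 ± 21.4 in SNL and 268 ± 39 in Sham. It was higher with UNC0638 than in SNL (log2 fold change 0.64, SE 0.14, adjusted p = 0.00663) and than in Sham (log2 fold change 0.41, SE 0.14, adjusted p = 0.0273), and not called in SNL against Sham (adjusted p = 0.146). Hsbp1, whose product binds heat shock factor 1, was lower with UNC0638 than in SNL (log2 fold change -0.77, SE 0.19, adjusted p = 0.0118). Hsf4, a further factor of the family, fell in SNL against Sham (log2 fold change -0.88, SE 0.15, adjusted p = 0.000706). The list of 4 held 0 higher and 1 lower gene in SNL against Sham (0 and 3 with the model term), and 1 higher and 3 lower in SNL plus UNC0638 against Sham (0 and 3 with the model term). Of all tested genes, 24.8% were higher and 23.4% lower in the first of these comparisons, and 25.5% and 26.0% in the second. The cytosolic chaperonin TRiC, which folds actin and tubulin, had 0 of 8 subunit genes called in SNL against Sham (limma, with 2 at an unadjusted p under 0.05), but 3 were called lower with the model term (Cct7, Cct8 and Tcp1). In SNL plus UNC0638 against SNL 6 of the 8 were lower (75%, where 14.3% of all tested genes were), or 2 with the model term (Cct2 and Cct3). The median log2 fold change was -0.48, and Cct3 (log2 fold change -0.57, SE 0.11, adjusted p = 0.00436) and Cct2 (log2 fold change -0.46, SE 0.10, adjusted p = 0.00724) had the smallest p-values. Against Sham, 7 of the 8 were lower in SNL plus UNC0638 (87.5%, where 26.0% of all tested genes were), or 5 with the model term. The TRiC genes Cct4, Cct5, Cct7 and Cct8 each lost the call against SNL when 1 or more of the single libraries was left out. Cct7, Cct8 and Tcp1 passed in SNL against Sham without Sham replicate 3. The Hsf1 call in SNL plus UNC0638 against Sham was lost when any 1 of SNL plus UNC0638 replicates 1 and 2 and Sham replicates 1, 2 and 4 was left out and under the model term (log2 fold change 0.17). The Hsbp1 call in SNL plus UNC0638 against SNL was lost when SNL plus UNC0638 replicate 2 was left out and under the model term (log2 fold change -0.54). The Hsf1 call in SNL plus UNC0638 against SNL was lost under the model term (log2 fold change 0.41).

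Of 16 tested ER stress genes, 2 rose and 1 fell in SNL against Sham (12.5% and 6.25%, below the 24.8% and 23.4% of all tested genes), with a median log2 fold change of 0.18. Eif2ak3 (PERK), a sensor of unfolded protein that halts translation, rose (log2 fold change 0.54, SE 0.10, adjusted p = 0.00139) and was lower with UNC0638 than in SNL (log2 fold change -0.45, SE 0.11, adjusted p = 0.0132). Ern1 (IRE1), another sensor, rose as well (log2 fold change 0.48, SE 0.17, adjusted p = 0.0363), and Ddit3 (CHOP), a transcription factor of prolonged ER stress, fell (log2 fold change -0.52, SE 0.18, adjusted p = 0.0333). Atf4, which PERK signalling induces through translation, was lower with UNC0638 than in SNL (log2 fold change -0.49, SE 0.12, adjusted p = 0.0132). In SNL plus UNC0638 against Sham 4 of the 16 were higher and 2 lower, against 25.5% and 26.0% of all tested genes. Chaperones of the same families under other names had 1 of 3 lower in SNL against Sham, the mitochondrial HSP90 gene Trap1 (log2 fold change -0.74, SE 0.11, adjusted p = 0.000305), and 1 lower in SNL plus UNC0638 against SNL, the small heat shock protein gene Cryab (log2 fold change -0.54, SE 0.15, adjusted p = 0.0202). The mitochondrial protease list had 1 of 3 lower in SNL against Sham, Afg3l2 (log2 fold change -0.57, SE 0.12, adjusted p = 0.00197), and 0 of 3 called in SNL plus UNC0638 against SNL (limma, with 0 at an unadjusted p under 0.05). The Ern1 call in SNL against Sham was lost when any 1 of SNL replicates 2, 3 and 4 and Sham replicates 2 and 4 was left out. The Ddit3 call in SNL against Sham was lost when any 1 of SNL replicates 3 and 4 and Sham replicates 1, 2 and 4 was left out. The Cryab call in SNL plus UNC0638 against SNL was lost when any 1 of SNL plus UNC0638 replicate 2 and SNL replicate 1 was left out and under the model term (log2 fold change -0.44). The Eif2ak3 and Atf4 calls in SNL plus UNC0638 against SNL were lost under the model term (log2 fold changes -0.31 and -0.30).

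**Figure D5:**
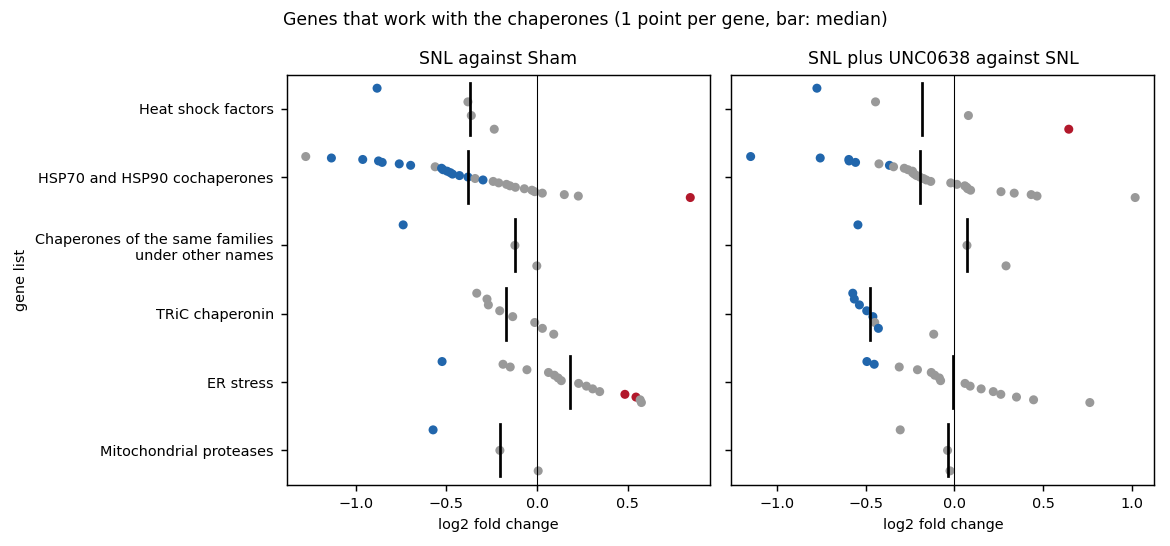
Log2 fold changes of the listed partner genes, 1 point per tested gene and a bar at the median of each list, for SNL against Sham (left panel) and SNL plus UNC0638 against SNL (right panel). Red points were called higher, blue points lower and grey points were not called, with the TRiC subunits grey in the left panel and 6 of 8 blue in the right one, where the model term called 2 of 8.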

How the data were processed

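RNA of 11 libraries was made into libraries with a stranded total RNA kit after removal of ribosomal RNA, per the labels' protocols, and read as single ends of 50 bases. The authors aligned to rn4 with TopHat2 2.0.9, and Cuffdiff 2.1.1 is named too, per the submitters' processing notes. Annotation, strand setting and treatment of shared reads were not stated. The values, a signal on a linear scale, behave as gene counts divided by the authors by 1 factor per library: 98.8% to 99.1% of low values in a library fell within 0.01 of a whole multiple of 1 step, taken as 1 read.

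With limma 3.58.1 (R 4.3.3, statmod 1.5.0), log2(value + 1) of 12085 genes was fitted over all 11 libraries with a mean for each group (eBayes with trend and robust, two-sided). A gene was called at a Benjamini-Hochberg adjusted p under 0.05 over all genes. The added 1 understates fold changes of low genes, and a ratio written as "-fold" is that of group means. Left out were 2 genes at 0 in a whole group and above 40 in all other libraries. The members and lists were chosen with earlier results of these data known. The genes named are, per family and comparison, the 4 called with the smallest p (or the 2 with the highest mean where none was called), fixed genes such as Hspb1 and Hsf1, and the 2 called with the smallest p per pathway list. Other members, and Bag2, Bag3, Ern1 and Ddit3, were named to account for them. Counting limits cover counting error only. Promoter windows are from RefSeq (GRCr8). Alternatives are compared in the closing section.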

Additional observations from a re-analysis of the deposited data

Results flagged for a closer look

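Of 132 groups of 4 libraries (66 genes in SNL and in Sham), 6 held a library set apart from the other 3 by a gap that Dixon's 95% limit does not allow. Chance alone gives about 1 in 20 groups, a share close to 6 of 132. SNL replicate 1 was apart for Dnajc9 (395, others 290.2 to 306) and Hspb2 (48, others 31.7 to 32.3). Sham replicate 3 was apart for Hspa12a (12939, others 8246 to 8298), Hspa12b (404, others 249 to 267), Dnaja3 (826, others 1085 to 1133) and Dnajc12 (175, others 210.1 to 216). Hspa12a was also highest in SNL replicate 3, at 10994, against 4874 to 8821 in the other SNL libraries. What sets these libraries apart was not tested.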

How the results depend on the processing

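Counts of called chaperone genes stayed within 1.5 times the values reported under median-of-ratios scaling, no filter, a filter at 1 CPM, a pseudocount of 5 and fits of only the 2 groups compared. In SNL plus UNC0638 against SNL, the 4 higher calls became 8 without both Sham replicate 3 and SNL replicate 3, and 9 with limma-voom on estimated reads. The model term raised the 25 lower calls in SNL against Sham to 31 and ended 0 of them. In that comparison the term could alter only the spread and not the fold changes, so that keeping these calls is no check of their size. The 10 lower calls in SNL plus UNC0638 against SNL became 5 with limma-voom, 5 with the replicate number as a block and 2 with the model term. The block left 22 lower calls in SNL against Sham. Whether replicate numbers pair the libraries could not be settled, since the labels do not say and genes are not independent replicates. Same-numbered deviations correlated between -0.446 and 0.431, and some libraries correlated best with another number. The highest value of all, 0.431, was of the same-numbered Sham and SNL replicates 3. With single libraries left out, the higher calls numbered 3 to 4 in SNL against Sham, 2 to 7 in SNL plus UNC0638 against SNL and 3 to 7 in SNL plus UNC0638 against Sham, and the lower calls 20 to 30, 4 to 13 and 28 to 37. With limma-voom the calls of Dnaja2, Hsp90ab1, Hspa8 and Hspe1 in SNL against Sham, of Dnaja1, Dnajc12, Dnajc30, Dnajc8 and Dnajc9 in SNL plus UNC0638 against SNL and of Dnajb1, Dnajb4, Dnajc12, Dnajc2, Dnajc21, Dnajc24, Dnajc27, Dnajc9, Hsp90ab1, Hspb11 and Hsph1 in SNL plus UNC0638 against Sham were lost. Fits of only the 2 groups lost the calls of Hsp90ab1 in SNL against Sham, of Dnajc27 and Dnajc30 in SNL plus UNC0638 against SNL and of Dnajb1 and Hspb11 in SNL plus UNC0638 against Sham, and omitting the filter lost those of Hsp90ab1 in the first and Hspb11 in the last of these comparisons. Limma-voom and the model term were chosen after seeing the data. Over chaperone and partner genes and all alternatives, 7257 values kept their side of the threshold, 336 lost and 147 gained a call, and no called gene changed sign. The 7257 include genes that were never called, so that they do not measure how well calls held. In SNL plus UNC0638 against SNL the model term alone lost 23 calls of these genes and the replicate block 12. Where calls changed, the cause was not tested. The planned count tests with edgeR and DESeq2 were not run, since the values are not whole counts. Dnajb7 and Hspb9, with few reads, are limited by depth, and the higher counts include Dnajb7 and Hspb7, which passed the filter only through SNL plus UNC0638.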
